A study of Homo sapiens with 12 samples.

Results

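The mevalonate pathway was followed through 8 of its enzymes, ACAT2, HMGCS1, MVK, PMVK, MVD, IDI1, FDPS and GGPS1, in Raji cells, an established line from a human Burkitt lymphoma. They were taken by symbol from the 60707 genes of the deposited count table, all 8 were found there, and all 8 were among the 17859 genes that passed a filter on low counts. RNA was sequenced from cells in which SMARCA4 (BRG1), the motor subunit of SWI/SNF chromatin remodellers, can be degraded through a degron that responds to auxin, and which were taken as GFP-low or GFP-high cells. The 4 groups, with 3 libraries each at 24 h, were GFP-low cells given FX1, GFP-low cells given DMSO, GFP-high cells given FX1 and GFP-high cells given DMSO. FX1 is a compound that inhibits BCL6, a repressor of transcription in germinal centre B cells, and DMSO is the vehicle. The labels give the genotype Smarca4+/+ for all 12 libraries and do not state which GFP gate holds less SMARCA4 protein, so groups are named by gate and treatment. All libraries came from 1 cell line, and the labels do not say whether replicates were separate cultures, so each p-value reflects a spread between libraries that may be technical.

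The pathway turns acetyl-CoA into the isoprenoid units from which cholesterol, the lipid anchors of prenylated proteins, dolichol and ubiquinone are made. ACAT2, the cytosolic thiolase, joins 2 acetyl-CoA molecules, and HMGCS1 adds another to give HMG-CoA, which is then reduced to mevalonate by an enzyme not analysed here. MVK and PMVK phosphorylate mevalonate in turn, MVD decarboxylates the product to isopentenyl diphosphate, and IDI1 isomerises that unit. FDPS condenses the units to farnesyl diphosphate, and GGPS1 extends this to geranylgeranyl diphosphate. Transcription of many of these genes is known to be driven by SREBP2, a membrane-held factor released when sterols are low, which acts at promoters together with NF-Y and Sp1.

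Promoters of the members were compared for the letters bound by these factors, since most of the 8 genes moved together after FX1. RefSeq windows on GRCh38.p14, from 250 bases before to 50 bases after an annotated start, were found for 7 of the 8 members, all but ACAT2, with 12 windows in all. The searched motifs were TCACNCCAC (a sterol regulatory element), CCAAT (NF-Y) and GGGCGG (Sp1 family), each on both strands. In the window nearest to the start in the count table, CCAAT occurred 2 times in HMGCS1, 5 times in MVK, 3 times in MVD, 2 times in IDI1 and 3 times in FDPS, and 0 times in PMVK and GGPS1. For MVK the annotated start of that window lay 539 bases from the start in the count table. For the others it lay 0 to 134 bases away. Of all 35116 windows of this length, 34.6% held CCAAT at least 1 time, 10.8% at least 2 times, 3.26% at least 3 times and 0.359% at least 5 times. Other windows of the same genes differed: the second HMGCS1 window held 0, the other two of IDI1 held 3 and 0, and the other two of GGPS1 held 1 and 0. TCACNCCAC was in 0 of the 12 windows and in 1.13% of all windows, and GGGCGG was in 6 of the 7 nearest windows and in 45.0% of all windows. Below are the 250 bases before the start, 5′ to 3′ on the coding strand, of the 2 members with the largest falls among those with a window (HMGCS1 and FDPS), the member with the most CCAAT (MVK), and the member whose RNA was not called changed by FX1 (PMVK). They lie at chr5:43313413-43313662 on the minus strand, chr1:155308616-155308865 on the plus strand, chr12:109573544-109573793 on the plus strand and chr1:154936720-154936969 on the minus strand. Capitals mark CCAAT and GGGCGG or their reverse complements, ATTGG and CCGCCC, and no 2 matches overlap in these stretches.
HMGCS1: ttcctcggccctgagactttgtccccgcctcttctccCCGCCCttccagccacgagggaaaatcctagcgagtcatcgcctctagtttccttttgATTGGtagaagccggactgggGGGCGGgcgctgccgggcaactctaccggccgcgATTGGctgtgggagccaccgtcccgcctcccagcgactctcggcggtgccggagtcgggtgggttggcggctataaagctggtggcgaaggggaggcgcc
FDPS: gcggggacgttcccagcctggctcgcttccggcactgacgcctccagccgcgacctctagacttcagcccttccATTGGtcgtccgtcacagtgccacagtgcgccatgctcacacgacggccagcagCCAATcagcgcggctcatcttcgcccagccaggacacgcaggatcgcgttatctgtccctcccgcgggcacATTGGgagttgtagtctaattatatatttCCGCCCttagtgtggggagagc
MVK: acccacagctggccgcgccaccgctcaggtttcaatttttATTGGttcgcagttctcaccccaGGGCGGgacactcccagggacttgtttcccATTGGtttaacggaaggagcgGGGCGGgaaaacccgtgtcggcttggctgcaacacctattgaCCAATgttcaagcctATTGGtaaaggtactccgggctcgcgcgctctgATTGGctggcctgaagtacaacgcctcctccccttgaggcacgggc
PMVK: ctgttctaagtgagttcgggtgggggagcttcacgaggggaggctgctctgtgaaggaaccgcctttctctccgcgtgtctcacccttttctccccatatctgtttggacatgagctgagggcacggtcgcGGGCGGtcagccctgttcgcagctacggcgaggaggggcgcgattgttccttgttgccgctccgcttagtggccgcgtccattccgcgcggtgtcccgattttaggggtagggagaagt
These matches describe the letters only.

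Total gene counts lay between 20454028 and 42556661 per library, and each member had between 204 (GGPS1) and 34312 (HMGCS1) counts in a library. Levels are CPM, a gene's share of the library total scaled by the trimmed mean of M-values (TMM). Replicates lay close together, with a variance between pairs 1.703 to 2.015 times that of sampling alone and a common coefficient of variation of 1.67%. Small differences could thus pass the test, which was edgeR's quasi-likelihood test over all 12 libraries with Benjamini-Hochberg adjustment over all tested genes and a threshold of 0.05. B-cell markers were present in all libraries, with CD79A between 238.9 and 320.7 CPM and PAX5 between 268.4 and 360.8 CPM. Of the listed markers of other cell types, only KRT18 and the myeloid marker S100A8 were at 0 in all libraries. Others were detected, such as COL1A1 at 7.893 to 18.31 CPM, the myeloid marker ITGAM at 0.6093 to 5.593 CPM and the T-cell marker CD3D at 0.7822 to 3.395 CPM. In such bulk samples, fewer cells of a kind and less RNA per cell cannot be told apart. Mitochondrial genes took 7.84% to 7.91% of counts in GFP-high DMSO and 4.23% to 5.13% in the other groups.

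FX1 lowered most of the pathway in both gates. In GFP-low cells 7 of the 8 members fell and 0 rose, with a median log2 fold change (FX1 over DMSO) of -1.39, against -0.01 over all tested genes. In GFP-high cells 7 fell and 0 rose, with a median of -1.16, against -0.01. The background was high: FX1 lowered 34.3% of all tested genes in GFP-low cells and 34.6% in GFP-high cells, raised 33.7% and 33.8%, and changed 68.0% and 68.4% in either direction, GFP-low first. The ranges of the FX1 and DMSO libraries did not overlap for 7 members in GFP-low cells, where this held for 69.6% of all tested genes, and for 6 members in GFP-high cells, where it held for 70.2%. The summed level of the 8 members was 577 ± 6.9 CPM in GFP-low FX1, against 2135 ± 14 CPM in GFP-low DMSO (SD, n = 3 each), 3.70-fold lower. It was 632 ± 10 CPM in GFP-high FX1, against 2215 ± 16 CPM in GFP-high DMSO (SD, n = 3 each), 3.502-fold lower. The order of the members by their FX1 log2 change was the same in both gates, which share no library. From the lowest change to the highest it was HMGCS1, ACAT2, FDPS, IDI1, MVD, MVK, GGPS1 and PMVK. PMVK did not fall in GFP-high cells (log2 change 0.06). Cell type markers moved with FX1 too. The summed B-cell markers MS4A1, CD79A, CD79B, PAX5, CD22 and BLK were lower, at 1868 to 1880 CPM in GFP-low FX1, against 2324 to 2344 CPM in GFP-low DMSO, and at 2112 to 2133 CPM in GFP-high FX1, against 2366 to 2387 CPM in GFP-high DMSO. The 7 T and NK cell markers, of which 4 passed the filter, summed to 2.787 to 3.361 CPM in GFP-low FX1, against 4.921 to 6.669 CPM in GFP-low DMSO, and to 3.825 to 4.097 CPM in GFP-high FX1, against 5.959 to 6.992 CPM in GFP-high DMSO. None of these ranges overlapped within a gate. The 7 myeloid markers, of which 3 passed, summed to 6.4 to 6.791 CPM in GFP-low FX1, against 2.59 to 3.664 CPM in GFP-low DMSO without overlap, and to 2.167 to 2.748 CPM in GFP-high FX1, against 1.857 to 2.25 CPM in GFP-high DMSO with overlap. The 7 epithelial, endothelial and stromal markers, of which 2 passed and nearly all of whose level was COL1A1, summed to 17.26 to 18.95 CPM in GFP-low FX1, against 12.76 to 13.78 CPM in GFP-low DMSO, and to 8.901 to 9.582 CPM in GFP-high FX1, against 8.209 to 9.732 CPM in GFP-high DMSO, where the ranges overlapped. The part of these markers in the members' changes was not tested.

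The enzymes that build HMG-CoA showed the largest falls. HMGCS1 (ENSG00000112972.15, hg38 chromosome 5, 43287470 to 43313512, minus strand) had 160, 154 and 159 CPM in the GFP-low FX1 libraries, against 924, 935 and 948 CPM in the GFP-low DMSO libraries. It had 203, 201 and 210 CPM in the GFP-high FX1 libraries, against 1079, 1074 and 1068 CPM in the GFP-high DMSO libraries. Every FX1 library was thus far below every DMSO library, and the lowest values were those of GFP-low FX1. HMGCS1 fell 5.93-fold in GFP-low cells (log2 change -2.57 ± 0.016, SE, edgeR adjusted p = 2.17e-245) and 5.24-fold in GFP-high cells (-2.39 ± 0.015, adjusted p = 1.05e-242). ACAT2 (ENSG00000120437.9, chromosome 6, 159762045 to 159779112, plus strand) had 62.9, 61.3 and 62.3 CPM in GFP-low FX1, against 241, 235 and 234 CPM in GFP-low DMSO. Its levels in GFP-high FX1 were 63.3, 67.05 and 65.2 CPM, against 261, 262 and 255 CPM in GFP-high DMSO. The FX1 and DMSO ranges did not overlap in either gate, and ACAT2 fell by 1.93 on the log2 scale in GFP-low cells (SE 0.025) and by 1.99 in GFP-high cells (SE 0.024).

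The steps from mevalonate to isopentenyl diphosphate split into 2 enzymes that fell and 1 that was not called. MVK (ENSG00000110921.14, chromosome 12, 109573255 to 109598125, plus strand), the first kinase, had 31.4, 29.8 and 28.0 CPM in GFP-low FX1, against 53.7, 57.3 and 56.7 CPM in GFP-low DMSO. It had 25.6, 23.9 and 26.5 CPM in GFP-high FX1, against 44.5, 43.1 and 44.9 CPM in GFP-high DMSO. MVK fell in both gates without overlap, 1.86-fold in GFP-low cells (-0.90 ± 0.044, log2, SE, edgeR adjusted p = 1.65e-52) and 1.74-fold in GFP-high cells (-0.80 ± 0.047, adjusted p = 2.11e-41). PMVK (ENSG00000163344.6, chromosome 1, 154924740 to 154936719, minus strand), the kinase of the next step, had 23.5, 26.3 and 25.7 CPM in GFP-low FX1, against 25.5, 24.6 and 26.1 CPM in GFP-low DMSO. It had 21.1, 20.9 and 20.4 CPM in GFP-high FX1, against 19.3, 20.0 and 20.4 CPM in GFP-high DMSO. These ranges overlapped in both gates. The log2 change of PMVK was -0.02 in GFP-low cells (95% interval -0.13 to 0.09, edgeR adjusted p = 0.739) and 0.06 in GFP-high cells (-0.06 to 0.18, adjusted p = 0.376), so both intervals ended above the changes of MVK and MVD. MVD (ENSG00000167508.12, chromosome 16, 88651935 to 88663161, minus strand), the decarboxylase, had 72.8, 70.9 and 68.6 CPM in GFP-low FX1, against 178, 174 and 166 CPM in GFP-low DMSO. Its levels were 48.4, 49.2 and 48.6 CPM in GFP-high FX1, against 107, 102 and 104 CPM in GFP-high DMSO. MVD fell 2.43-fold in GFP-low cells (-1.28 ± 0.028) and 2.14-fold in GFP-high cells (-1.09 ± 0.031), and the groups did not overlap.

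The isomerase and the chain-building enzymes fell to different degrees. IDI1 (ENSG00000067064.12, chromosome 10, 1039152 to 1049119, minus strand) had 106, 106 and 103 CPM in GFP-low FX1, against 288, 299.5 and 301 CPM in GFP-low DMSO. It had 145, 149.98 and 153 CPM in GFP-high FX1, against 351, 342 and 350.1 CPM in GFP-high DMSO. With no overlap in either gate, IDI1 fell 2.82-fold in GFP-low cells (-1.50 ± 0.021, log2, SE) and 2.33-fold in GFP-high cells (-1.22 ± 0.019). FDPS (ENSG00000160752.15, chromosome 1, 155308748 to 155320666, plus strand), which makes farnesyl diphosphate, had 119, 116 and 115 CPM in GFP-low FX1, against 393, 400.3 and 397 CPM in GFP-low DMSO. It had 103, 105 and 107 CPM in GFP-high FX1, against 354, 345 and 353 CPM in GFP-high DMSO. FDPS fell 3.40-fold in GFP-low cells (-1.76 ± 0.019) and 3.34-fold in GFP-high cells (-1.74 ± 0.020), again without overlap. GGPS1 (ENSG00000152904.11, chromosome 1, 235327350 to 235344532, plus strand), which makes geranylgeranyl diphosphate, had 10.1, 11.03 and 9.37 CPM in GFP-low FX1, against 14.8, 15.9 and 14.95 CPM in GFP-low DMSO. It had 12.9, 14.2 and 11.9 CPM in GFP-high FX1, against 15.8, 13.2 and 16.0 CPM in GFP-high DMSO. The GFP-low groups stood apart, with a log2 change of -0.58 ± 0.078 (SE, edgeR adjusted p = 7.82e-12), whereas the GFP-high groups overlapped, at -0.20 ± 0.076 (adjusted p = 0.016). That GFP-high call was lost without GFP-high FX1 replicate 1 or 3 or GFP-high DMSO replicate 1 or 3 (adjusted p = 0.0509 to 0.154, log2 changes -0.18 to -0.13), with no filter on low counts (adjusted p = 0.0532), and after a smooth trend with transcript GC content and length was taken out (log2 change -0.04, adjusted p = 0.652).

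**Figure D1:**
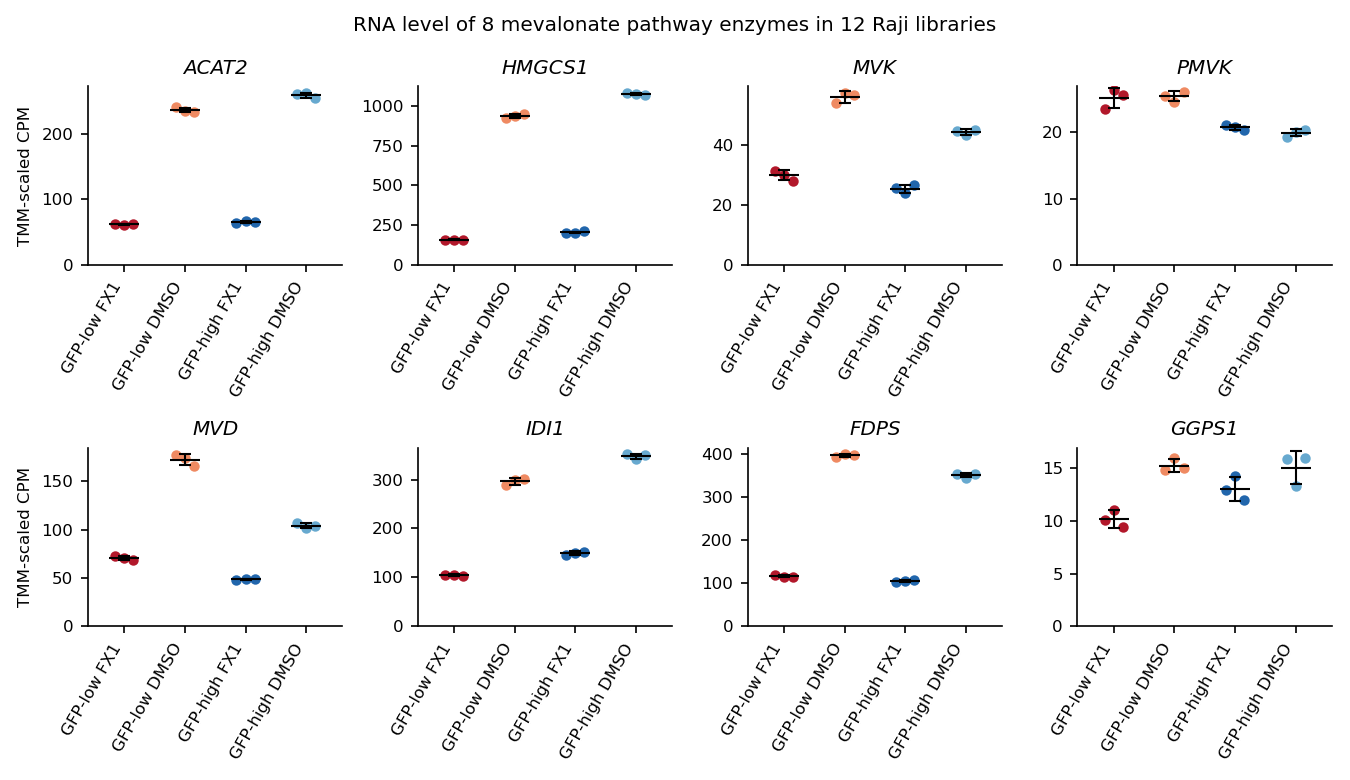
RNA level (TMM-scaled CPM, linear axis from 0) of each member in the 4 groups; points are libraries, and bars are the mean and SD of 3. FX1 libraries lie below DMSO libraries of the same gate for every member except PMVK in both gates and GGPS1 in GFP-high cells, where the ranges overlap.

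The GC content of the members' transcripts lay between 40.2% (HMGCS1) and 63.7% (MVD), and over the 17557 tested genes with a GC value the FX1 change rose with GC content, with a Spearman rho of 0.342 in GFP-low and 0.146 in GFP-high cells. With a smooth trend on GC content and length removed from each library, HMGCS1 still stood at -2.35 in GFP-low and -2.25 in GFP-high cells (log2 change), and ACAT2, FDPS, IDI1, MVD and MVK at -1.95 to -1.17 in GFP-low and -1.93 to -0.91 in GFP-high cells. MVD and IDI1 then changed places in the order, at -1.66 and -1.29 in GFP-low and -1.23 and -1.08 in GFP-high cells. PMVK, which was not called above, then stood at -0.22 in GFP-low cells (edgeR adjusted p = 0.000375) and at 0.05 in GFP-high cells (adjusted p = 0.443).

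FX1 also changed which enzymes led the pathway per kb of exon length, though not by CPM. By CPM, HMGCS1 was highest and GGPS1 lowest in all 4 groups. HMGCS1 had 158 ± 2.9 CPM in GFP-low FX1, against 117 ± 1.9 CPM for FDPS, the next. It had 205 ± 4.8 CPM in GFP-high FX1, against 149 ± 3.7 CPM for IDI1, the next (SD, n = 3 each). The length used joins all exons of a gene and need not be that of the expressed transcript. Per kb of exon length, HMGCS1 was highest in GFP-low DMSO (141 ± 1.8 CPM per kb) and in GFP-high DMSO (162 ± 0.85), and GGPS1 had the lowest mean in all 4 groups (SD, n = 3 each). In GFP-high FX1, however, the range of GGPS1 (3.42 ± 0.30 CPM per kb) overlapped that of MVK (3.90 ± 0.20). In GFP-low FX1 the highest member per kb was FDPS (31.4 ± 0.51 CPM per kb), and PMVK (25.1 ± 1.5), IDI1 (24.4 ± 0.31), HMGCS1 (23.8 ± 0.44) and ACAT2 (23.5 ± 0.31) followed with overlapping ranges between neighbours. In GFP-high FX1 the order per kb was IDI1 (34.8 ± 0.87 CPM per kb), HMGCS1 (30.9 ± 0.73), FDPS (28.2 ± 0.54), ACAT2 (24.7 ± 0.70) and PMVK (20.7 ± 0.36), with no overlap between neighbours. The per-kb level of HMGCS1 over that of PMVK was 0.949 ± 0.071 in GFP-low FX1, against 5.57 ± 0.15 in GFP-low DMSO. The same ratio was 1.49 ± 0.060 in GFP-high FX1, against 8.16 ± 0.27 in GFP-high DMSO (SD, n = 3 each). The highest member exceeded the lowest, per kb, 11.8 ± 0.97 times in GFP-low FX1, against 35.4 ± 1.4 times in GFP-low DMSO, and 10.3 ± 0.97 times in GFP-high FX1, against 41.4 ± 4.5 times in GFP-high DMSO. HMGCS1 alone made up 27.3% ± 0.47 of the summed CPM of the members in GFP-low FX1 and 43.8% ± 0.34 in GFP-low DMSO. It made up 32.4% ± 0.48 in GFP-high FX1 and 48.5% ± 0.26 in GFP-high DMSO.

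**Figure D2:**
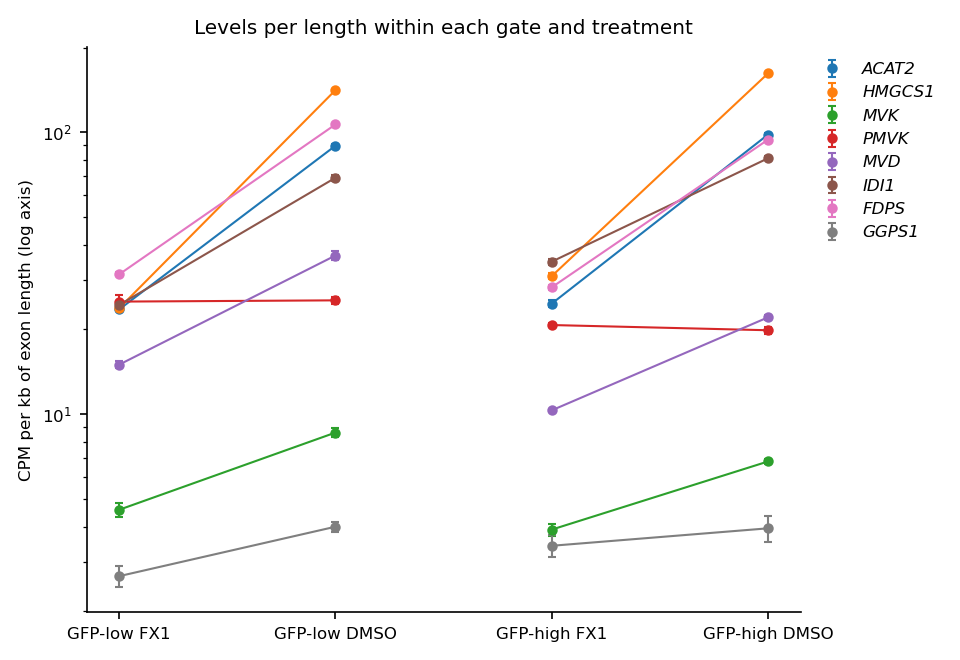
Mean level per kb of exon length (CPM per kb, log axis) of the 8 members in each group, with SD of 3 libraries; lines join FX1 and DMSO of the same gate. In both gates the lines of HMGCS1, ACAT2, FDPS and IDI1 come down towards that of PMVK on the FX1 side, and the PMVK line stays nearly level.

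The FX1 effect was larger in GFP-low cells for 4 of the 8 members by the test of the difference between gates (GFP-low minus GFP-high), and 0 members had a smaller fall there that passed it. Of all tested genes, 16.5% had a lower and 31.3% a different FX1 effect in GFP-low cells. The difference was -0.18 ± 0.022 for HMGCS1 (log2, SE, edgeR adjusted p = 2.19e-13), -0.19 ± 0.042 for MVD (adjusted p = 0.000115), -0.28 ± 0.028 for IDI1 (adjusted p = 8.84e-18) and -0.38 ± 0.11 for GGPS1 (adjusted p = 0.00277). For HMGCS1, MVD and IDI1 these differences were small beside the FX1 effect in either gate, whereas for GGPS1 the difference exceeded its GFP-high effect in size. The SEs take the scaling between libraries as fixed. With each library left out in turn, which also changes the scaling, the difference ranged from -0.23 to -0.16 for HMGCS1 and from -0.25 to -0.17 for MVD. It ranged from -0.33 to -0.26 for IDI1 and from -0.48 to -0.32 for GGPS1. The remaining members did not pass: ACAT2 at 0.07 (95% interval -0.003 to 0.14), FDPS at -0.02 (-0.08 to 0.03), MVK at -0.10 (-0.23 to 0.03) and PMVK at -0.08 (-0.25 to 0.08). With the GC and length trend removed, 7 of the 8 members, all but ACAT2, had a lower FX1 effect in GFP-low cells. Over all genes the split of this difference moved with the scaling, with 2636 higher and 2947 lower as reported here, 1826 and 3201 with that trend removed, and 2038 and 3622 with mitochondrial and the most abundant genes left out of the scaling.

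**Figure D3:**
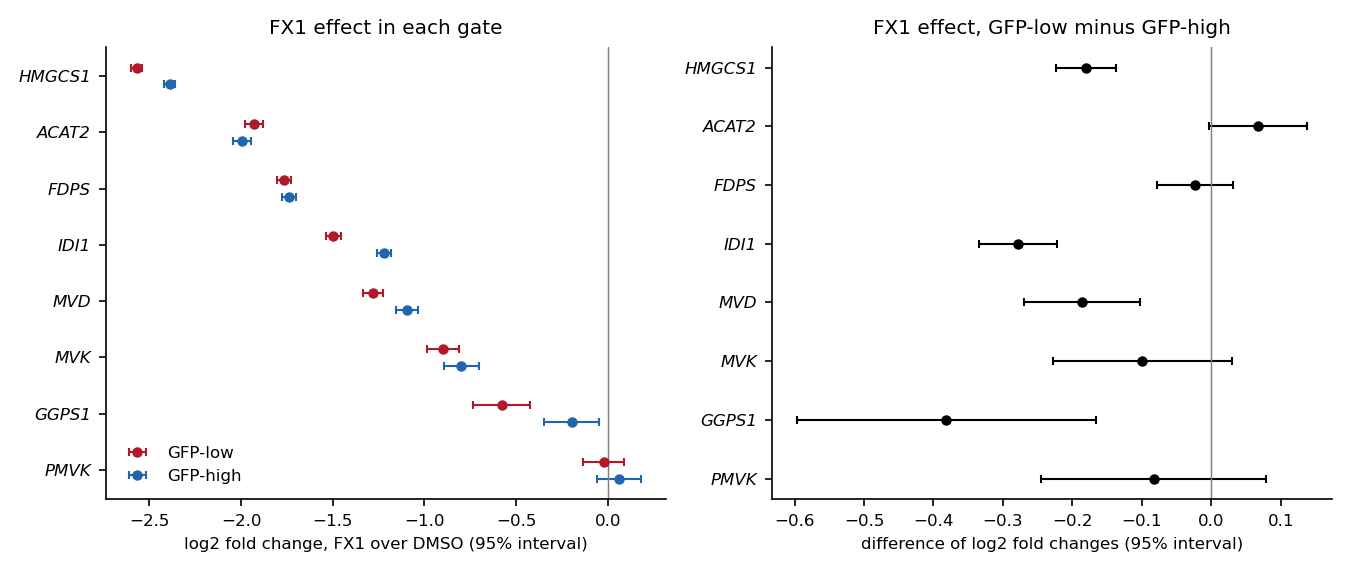
Left, log2 fold change of FX1 over DMSO for each member in GFP-low (red) and GFP-high (blue) cells; right, the GFP-low effect minus the GFP-high effect, all with 95% intervals. The members stand in the same order in both gates, and the intervals of HMGCS1, IDI1, MVD and GGPS1 on the right do not reach 0.

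Between the gates the pathway did not move as a block. Under DMSO, GFP-low cells had more RNA than GFP-high cells of 4 members and less of 3, while 21.7% and 24.4% of all tested genes were higher and lower, 46.1% in all. The library ranges of these 7 members did not overlap between gates, which held for 51.6% of all tested genes. MVD was 1.66-fold higher (log2 change 0.73 ± 0.027, SE, edgeR adjusted p = 1.82e-72), PMVK and MVK rose by 0.35 ± 0.060 and 0.34 ± 0.043, and FDPS by 0.18 ± 0.017. IDI1, HMGCS1 and ACAT2 fell by 0.23 ± 0.018, 0.20 ± 0.013 and 0.13 ± 0.021 on the log2 scale. GGPS1 stood at 0.03 (95% interval -0.12 to 0.18). The higher members thus had a transcript GC content of 56.0% to 63.7%, and the lower ones of 40.2% to 50.2%. Over all genes this difference between gates rose with GC content (Spearman rho 0.313). With the GC and length trend removed, all 7 calls under DMSO kept their direction, but several shrank: FDPS stood at 0.06, PMVK at 0.15 (edgeR adjusted p = 0.0418), MVK at 0.19, IDI1 at -0.14 and HMGCS1 at -0.10. MVD stood at 0.49 and ACAT2 at -0.16.

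Under FX1 the same comparison called all 8 members, 4 higher and 4 lower in GFP-low cells, where 30.2% and 26.7% of all tested genes were higher and lower, 56.9% in all. The library ranges of all 8 did not overlap, which held for 61.1% of all tested genes. MVD was again the highest, at 0.54 ± 0.032 (log2 change, SE), followed by PMVK at 0.27 ± 0.056, MVK at 0.24 ± 0.049 and FDPS at 0.16 ± 0.022. IDI1 was lowest at -0.51 ± 0.022, followed by HMGCS1 at -0.38 ± 0.017, GGPS1 at -0.35 ± 0.078 and ACAT2 at -0.07 ± 0.029. The ACAT2 call had an edgeR adjusted p of 0.0437 and was lost without any of 7 of the 12 libraries in turn. Those 7 were GFP-low FX1 replicates 1, 2 and 3, GFP-low DMSO replicates 1 and 2, and GFP-high FX1 replicates 2 and 3 (adjusted p = 0.0503 to 0.23). It was also lost with no filter on low counts (adjusted p = 0.239) and with a filter of 50 counts in 3 libraries (adjusted p = 0.445). Without GFP-high DMSO replicate 1, 2 or 3, which this comparison does not use directly, ACAT2 stood at -0.11 each time. Of the 5 comparisons, this one had the highest rank correlation with GC content (Spearman rho 0.520), and removing it moved the median of all tested genes by -0.10 and the calls over all genes to 3094 higher and 5393 lower, against 5391 and 4767 before. Relative to the median of all genes, FDPS, MVK and PMVK then stood at -0.09, -0.05 and -0.10, against 0.08, 0.16 and 0.19 before. FDPS thereby turned from called higher to called lower (unshifted log2 change -0.11, edgeR adjusted p = 7.7e-06), and MVK and PMVK were no longer called (adjusted p = 0.239 and 0.0637). MVD stood at 0.09 relative to that median, against 0.47 before, and was no longer called (adjusted p = 0.0865). IDI1, HMGCS1 and ACAT2 remained called lower, at -0.35, -0.19 and -0.18 on the unshifted log2 scale, and GGPS1 at -0.17 was no longer called (adjusted p = 0.0588).

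**Figure D4:**
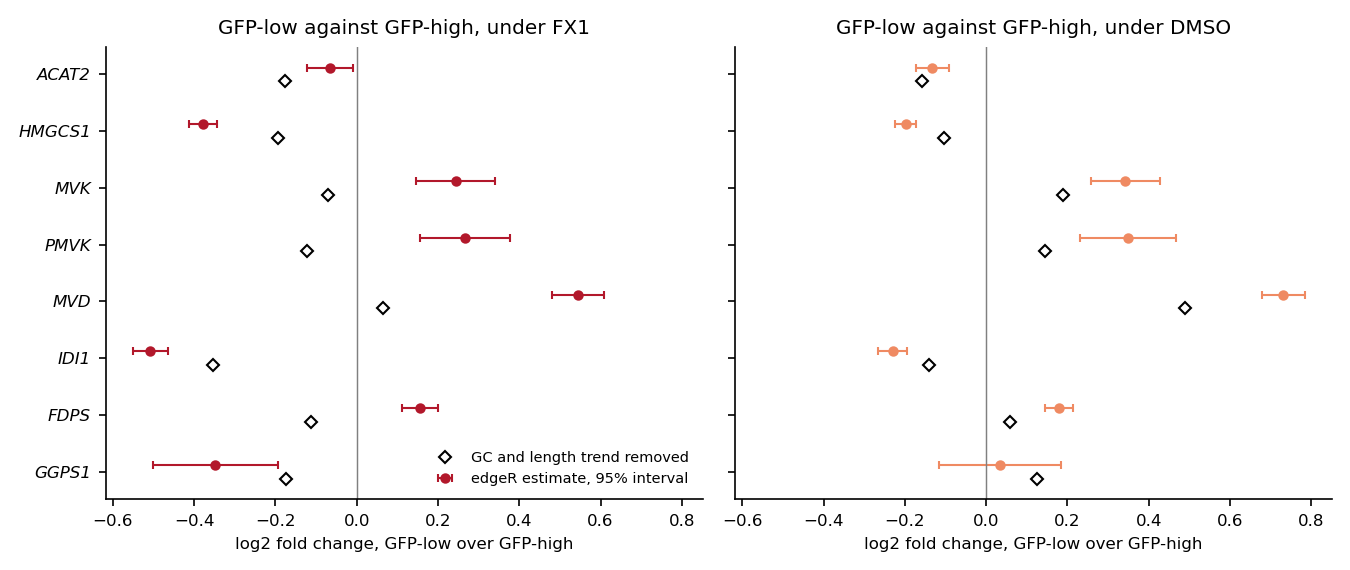
Log2 fold change of GFP-low over GFP-high cells for each member under FX1 (left) and DMSO (right), with 95% intervals; open diamonds are the same values after the GC and length trend was taken out. MVD and IDI1 stand furthest from 0 on opposite sides under FX1, and the diamonds of MVK, PMVK and FDPS lie on the other side of 0 under FX1.

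Across the 12 libraries the members correlated to different degrees, and PMVK least with the others. Pearson's r of log2 CPM lay between 0.932 and 0.996 for the 6 pairs of ACAT2, HMGCS1, IDI1 and FDPS, and was 0.980 for MVK with MVD. With those 4 genes, MVK had r between 0.829 and 0.968 and MVD between 0.729 and 0.921. It lay between 0.564 and 0.873 for GGPS1 with the members other than PMVK, and between -0.317 and 0.386 for PMVK with the other 7. These values describe 12 libraries in 4 groups, so that they mostly restate the group differences. The 10 genes outside the pathway list most like the mean profile of the 8 members, among genes averaging at least 2 in log2 CPM, had r between 0.997 and 0.998 with it. They were TXNIP, ATP8A1, WDR54, AHCY, FNBP1, PNRC1, BPTF, NBAS, ZNF292 and FDFT1, the squalene synthase that draws on the farnesyl diphosphate made by FDPS. FDFT1 had 139 ± 3.9 CPM in GFP-low FX1, against 358 ± 2.4 CPM in GFP-low DMSO, and 135 ± 3.6 CPM in GFP-high FX1, against 356 ± 2.8 CPM in GFP-high DMSO (SD, n = 3 each).

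The sterol branch after farnesyl diphosphate fell too, whereas the enzymes that use isoprenoids for other products did not fall together. Of 13 sterol branch genes from squalene synthase to the reductases of the last steps, 11 fell and 1 rose in GFP-low cells (84.6% and 7.69%, median log2 change -0.82), and 12 fell and 0 rose in GFP-high cells (92.3% fell, median -0.72), against the 34.3% and 34.6% of all tested genes that fell. FDFT1 stood at -1.36 ± 0.019 in GFP-low and -1.40 ± 0.019 in GFP-high cells (log2 change, SE). The squalene epoxidase SQLE stood at -1.27 ± 0.018 and -1.40 ± 0.017 in the same order of gates, the methylsterol oxidase MSMO1 at -1.77 ± 0.028 and -1.39 ± 0.027, and SC5D at -1.27 ± 0.025 and -1.07 ± 0.024. Of 16 tested nonsterol isoprenoid users, 7 rose and 5 fell in GFP-low cells (43.8% and 31.2%, median 0.02), and 9 rose and 4 fell in GFP-high cells (56.2% rose, median 0.20). ZMPSTE24, a protease that trims prenylated proteins, rose by 0.64 ± 0.032 in GFP-low and 0.92 ± 0.030 in GFP-high cells. COQ2 of ubiquinone synthesis stood at -0.88 ± 0.064 and -0.82 ± 0.061. NUS1, a subunit of the dolichol-making enzyme, went opposite ways, at -0.34 ± 0.022 in GFP-low and 0.37 ± 0.020 in GFP-high cells, a difference of -0.70 ± 0.030 (edgeR adjusted p = 6.45e-61).

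Among genes that control the pathway, calls in GFP-low cells were near the background. Of 14 tested genes of SREBP control and sterol transport, 5 rose and 5 fell in GFP-low cells (35.7% each, against 33.7% higher and 34.3% lower of all tested genes, median log2 change -0.07), and 4 rose and 8 fell in GFP-high cells (28.6% and 57.1%, against 33.8% and 34.6%, median -0.17). SREBF2, which encodes SREBP2, stood at -0.28 ± 0.016 in GFP-low and -0.41 ± 0.016 in GFP-high cells, and SCAP, its escort protein, at 0.97 ± 0.033 and 0.94 ± 0.037. INSIG1, which retains the SREBP escort complex in the endoplasmic reticulum and is itself induced by SREBP, stood at -1.56 ± 0.015 and -0.81 ± 0.014, and the sterol carrier STARD4 at -1.72 ± 0.024 and -1.22 ± 0.022. Of 7 tested genes of acetyl-CoA supply and paralog enzymes, 5 fell and 1 rose in GFP-low cells (median -0.34), and 6 fell and 0 rose in GFP-high cells (median -0.41). ACLY, which makes cytosolic acetyl-CoA from citrate, stood at -1.42 ± 0.013 and -0.99 ± 0.013, the citrate carrier SLC25A1 at -0.43 ± 0.028 and -0.27 ± 0.030, and ACAA2 at -0.34 ± 0.045 and -0.45 ± 0.043. Of 8 tested fatty acid synthesis genes, 8 fell in GFP-low cells (median -0.61) and 7 in GFP-high cells (median -0.61). The desaturases SCD and FADS1 stood at -1.52 ± 0.012 and -1.50 ± 0.037 in GFP-low cells and at -1.60 ± 0.012 and -1.30 ± 0.039 in GFP-high cells. FASN stood at -0.41 ± 0.012 and -0.37 ± 0.013 and the elongase ELOVL5 at -0.88 ± 0.019 and -0.69 ± 0.018, GFP-low first. By median, the 8 mevalonate enzymes had the largest fall of these 6 lists in both gates, given as a description without a test.

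**Figure D5:**
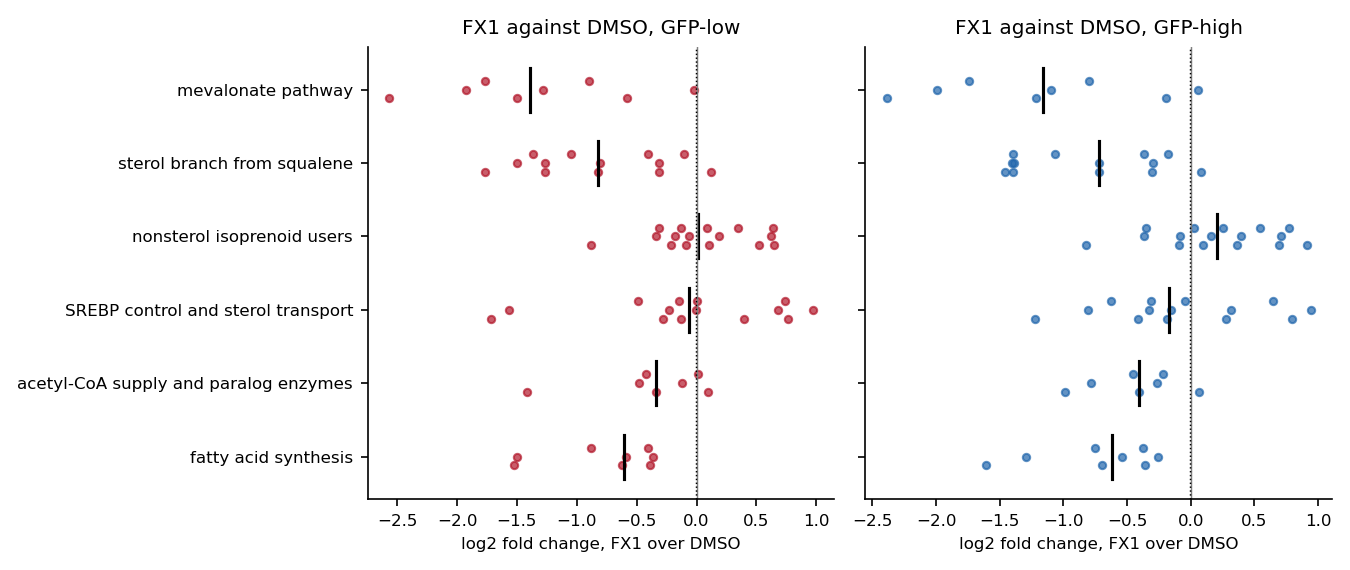
Log2 fold change of FX1 over DMSO of each tested gene in the mevalonate pathway and 5 related lists, in GFP-low (left) and GFP-high (right) cells; black bars are list medians and the dotted line is the median of all tested genes. The mevalonate, sterol branch and fatty acid lists lie mostly left of 0, and the nonsterol isoprenoid users lie on both sides.

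Genes next to the members did not all follow them. MMAB, an enzyme of cobalamin metabolism, starts 325 bases from MVK on the other strand, and the pair overlaps by 326 bases. MMAB had 25.1 ± 0.97 CPM in GFP-low FX1, against 42.6 ± 2.2 CPM in GFP-low DMSO, and 25.4 ± 0.96 CPM in GFP-high FX1, against 45.0 ± 1.4 CPM in GFP-high DMSO (SD, n = 3 each). It fell with FX1 in both gates, by 0.76 ± 0.049 and 0.82 ± 0.048 on the log2 scale, GFP-low first. TCP1, a chaperonin subunit whose gene overlaps ACAT2 by 615 bases on the other strand, stood at only -0.05 ± 0.013 in GFP-low and -0.08 ± 0.013 in GFP-high cells. WDR37, which starts 419 bases from IDI1 on the other strand, rose by 0.37 ± 0.046 and 0.39 ± 0.048 where IDI1 fell. ARID4B, a chromatin gene that overlaps GGPS1 by 870 bases on the other strand, stood at -0.42 ± 0.026 and -0.50 ± 0.025. SNAI3-AS1, which starts 137 bases from MVD on the other strand, stood at 0.21 ± 0.078 and 0.06 ± 0.091, and was higher in GFP-low than in GFP-high cells by 0.72 ± 0.080 under FX1 and 0.58 ± 0.088 under DMSO. ENSG00000285053, annotated as protein-coding, overlaps GGPS1 by 15963 bases on the same strand. It stood at -0.39 ± 0.12 in GFP-low and -0.54 ± 0.12 in GFP-high cells. The strand setting of the counting is not given in the sources used here, so reads from overlapping genes cannot be assigned with certainty. For GGPS1 and ENSG00000285053 this holds whatever the strand setting, and the part of it in the GGPS1 values was not tested. FDPS has 8 annotated pseudogenes in the table, with 256 counts over all libraries, 0.311% of those of FDPS, and IDI1 has 3, with 5 counts.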

How the data were processed

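Total RNA of the 12 samples went through the KAPA HyperPrep chemistry with ribosomal depletion (RiboErase), per the labels' protocols. FastQC, STAR, featureCounts of Subread, R 4.2.1 and the hg38 build are named, without roles, in the submitters' processing notes. Whole-number counts for each gene were deposited as one table with an exon length per gene, per the file headers. Versions of the aligner and counter, the annotation and the strand setting are not given in the sources used here. The table had 60710 lines, of which 3 formed 1 broken gene record and were left out, and 99.6% of genes had a symbol. 0 count columns lacked a sample.

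Genes were filtered with filterByExpr, scaled by TMM and tested with edgeR 4.0.16 in R 4.3.3 (quasi-likelihood, robust, 1 term per group, all 12 libraries, 8 residual degrees of freedom, p-values adjusted over 17859 genes). The code was first run on counts simulated from its own fitted spread, with few genes changed. That run cannot show how the scaling performs where most genes change, as they did here with FX1. DESeq2 1.42.0, other scalings and filters, only the groups compared, a replicate block, a trend on GC content and length (mgcv, 17557 genes, 98.3%), and leaving out each library were tried as alternatives. Members and lists were chosen with earlier results of these data known. All 8 members are named, with up to 4 genes per list called in both FX1 comparisons with the lowest larger p, the 10 genes most like the members' mean profile, the gene most like each member, and genes that overlap a member or start within 1000 bases on the other strand. Of these neighbours, noncoding genes with few counts and genes with no symbol are not reported here, nor are a few genes that these rules name. Same-numbered libraries showed no sign of pairing (0 of 18 same-numbered pairs correlated above 0.1). Since replicates lay close together, this check could miss a shared culture or day. No molecular identifiers are named, so reads may hold PCR copies.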

Additional observations from a re-analysis of the deposited data

Results flagged for a closer look

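For 4 members the FX1 effect differed between the gates by the test of that difference (GFP-low minus GFP-high, log2). HMGCS1 differed by -0.18, MVD by -0.19, IDI1 by -0.28 and GGPS1 by -0.38, each with a larger fall in GFP-low cells. All 4 kept this direction and their edgeR call when each of the 12 libraries was left out in turn and with the GC and length trend removed, where they stood at -0.09, -0.42, -0.21 and -0.30 in the same order of genes. Mitochondrial genes took fewer counts in GFP-low DMSO (4.72% to 4.84%) than in GFP-high DMSO (7.84% to 7.91%), and the part of this in the differences was not tested beyond the scaling without those genes, under which the same number of members, 4, was called.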

How the results depend on the processing

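Of 352 member values under settings other than leaving out a library, 326 kept their direction and their side of the threshold, as did 465 of 480 with a library left out. Most of the others came from removing the trend on GC content and length. With it removed, 4 members rather than 8 were called between gates under FX1 (0 higher), and 7 rather than 4 differed between gates in the FX1 effect, and the same counts, 4 and 7, came with the trend removed together with the replicate block. FDPS, MVK and PMVK then turned to -0.11, -0.0709 and -0.12 between gates under FX1 (-0.11, -0.0694 and -0.12 with the block too), and ACAT2 turned to -0.0194 (-0.0206 with the block too) in the difference of FX1 effects. What in the libraries makes the trend was not tested. With each library left out in turn, the FX1 change of PMVK in GFP-low cells, which was not called, ranged from -0.0679 to 0.0401 and the uncalled change of GGPS1 between gates under DMSO from -0.0630 to 0.0846. The replicate block alone left 7, 7, 7, 8 and 4 members called in the order FX1 in GFP-high, FX1 in GFP-low, gates under DMSO, gates under FX1 and difference, as without it; same-numbered libraries correlated between -0.037 and 0.018, and 1 of 12 correlated best with its own number. GGPS1, with 204 to 501 counts per library, has the widest errors of the 8.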

Other observations

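Taken singly, 7 of the members are given here with the closest gene outside the list across the 12 libraries, by Pearson's r of log2 CPM: WSB1 for ACAT2 (0.999), PXK for MVK (0.994), PVT1 for PMVK (0.970), DHCR7 for MVD (0.997), TOMM20 for IDI1 (0.999), CCL22 for FDPS (0.999) and RPSA for GGPS1 (0.968). DHCR7, the reductase of the last step of cholesterol synthesis, had 162 CPM in GFP-low FX1, against 286 CPM in GFP-low DMSO, and 129 CPM in GFP-high FX1, against 211 CPM in GFP-high DMSO, and so shared with MVD both the fall with FX1 and the higher level in GFP-low cells. CCL22, a chemokine gene, had 13.9 CPM in GFP-low FX1, against 83.2 CPM in GFP-low DMSO, and 11.7 CPM in GFP-high FX1, against 66.4 CPM in GFP-high DMSO. These are descriptions over 12 libraries that share their 4 groups.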
